A study of Rattus norvegicus with 24 samples.

Results

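ENSRNOT00000000525 and ENSRNOT00000000180 are 2 rat transcripts, of 22938 counted, that were low in the brain of young animals and higher in the brain of old ones. They were chosen by their old against young change in brain RNA-seq: among 44 transcripts that rose past the test there, had a mean log2 CPM of 0 or more and did not overlap between the ages, they had the largest log2 changes, 1.93 and 1.76, and the next one stood at 1.55. The brain RNA-seq values below are therefore a description. The pool depended on the setting: the test called 66 transcripts in either direction, but 1128 without young animal 1 and 1 without young animal 3. Footprints and liver libraries were not used to choose the 2 transcripts, but they come from the same 6 animals.

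The series holds brain and liver of 3 rats aged 6 months (young) and 3 rats aged 24 months (old), each organ measured by RNA-seq of total RNA and by ribosome profiling, in 8 groups of 3 libraries. Both ages were handled alike, with homogenization on ice in a buffer labelled TKM0.25. Strain, sex and any treatment are not stated in the labels used here. The titles carry 1 number for each animal of an age, so old animal 2 is the same rat in both organs and both assays.

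RNA-seq counts the pieces of a transcript that are present in the tissue, whereas ribosome profiling counts only the short pieces that a translating ribosome shielded from nuclease digestion, called footprints. The ratio of footprints to RNA is the usual measure of how heavily a message is loaded with ribosomes. When footprints change in proportion to RNA, that ratio stays as it was. In whole tissue, more RNA per cell and more cells of a type that carries the transcript cannot be told apart. The identifiers of the 2 transcripts are not paired with gene names in the files or tables used here, so their products, functions and sequences are not given.

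Levels are CPM (counts per 1000000 of the library's own total), and log2 changes come from a fit that scales libraries by TMM factors (trimmed mean of M values). RNA-seq libraries held 14281043 to 28664906 counts, and those of ribosome profiling 5259326 to 17584871. Liver RNA was unequal between brain libraries: in old animal 2, 50 liver-enriched transcripts summed to 4.49% (RNA-seq) and 5.87% (ribosome profiling) of what they reached in liver. In the other brain libraries they summed to 0.0616% to 0.116% and to 0.0939% to 0.339%. These 50 were picked on the same libraries, so the shares describe those libraries and are no independent check of the organ labels.

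In brain RNA-seq, ENSRNOT00000000525 stood at 1.90, 1.94 and 1.53 CPM in young animals 1, 2 and 3 (29, 30 and 23 counts) and at 6.15, 9.71 and 4.76 CPM in old animals 1, 2 and 3 (108, 157 and 68 counts). The old libraries all lay above the young ones, the lowest of them by 2.45-fold over the highest young one. Old animal 2 was the highest and old animal 3 the lowest of the old libraries. The means were 1.79 ± 0.225 and 6.87 ± 2.55 CPM (SD, n = 3), a 3.84-fold difference, with a log2 change of 1.93 (SE 0.279) that was higher than that of 99.6% of 13986 transcripts. Of those transcripts 0.472% passed an adjusted p under 0.05 in either direction, and 10.9% had all old libraries above all young ones. Nothing is read from these shares here, because this contrast chose the transcript.

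ENSRNOT00000000180 stood at 1.63, 0.971 and 1.73 CPM in young brain RNA-seq (25, 15 and 26 counts) and at 3.19, 5.26 and 6.51 CPM in old brain (56, 85 and 93 counts). Here old animal 3 was the highest and old animal 1 the lowest of the old libraries, an order unlike that of ENSRNOT00000000525. The means were 1.45 ± 0.414 and 4.99 ± 1.68 CPM (SD, n = 3), a 3.45-fold difference and a log2 change of 1.76 (SE 0.305). Young counts were low for both transcripts. The summed young counts of 82 and 66 gave ratios of old to young of 3.87 (95% exact binomial interval 3.03 to 4.99) and 3.38 (2.56 to 4.51), for counting error only. Without old animal 2 the log2 changes were 1.59 and 1.70, again as a description. The share of liver RNA in that library, applied to the mean liver level over both ages, equals 0.658 CPM of its 9.71 for ENSRNOT00000000525. For ENSRNOT00000000180 it equals 0.0975 CPM of its 5.26. The liver of old animal 2 itself stood at 22.7 CPM, above both age means, and at 1.41 CPM, below both. With the animal's own liver levels the amount would be larger for ENSRNOT00000000525 and smaller for ENSRNOT00000000180.

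**Figure D1:**
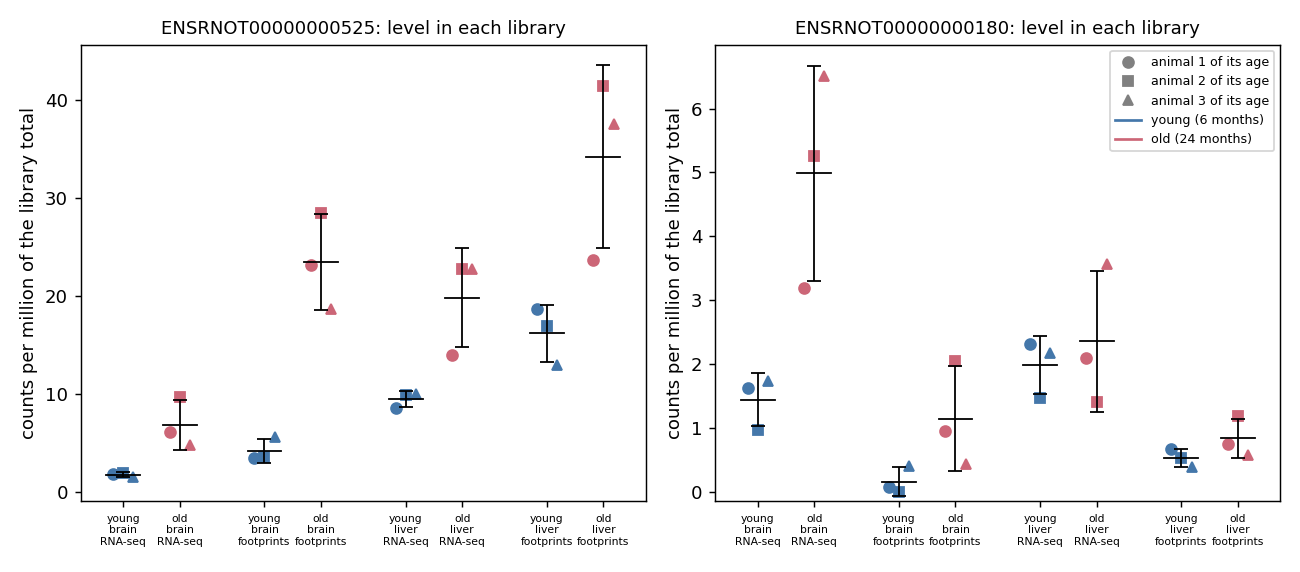
Level of ENSRNOT00000000525 (left) and ENSRNOT00000000180 (right) in each of the 24 libraries, in CPM of the library total on linear axes that differ between the panels. Points are animals, by shape; bars are the mean and SD of 3 libraries. All old brain points of ENSRNOT00000000525 lie above the young ones in both assays, whereas liver points of ENSRNOT00000000180 overlap between the ages.

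Brain footprints of ENSRNOT00000000525 rose with age. They stood at 3.48, 3.54 and 5.63 CPM in young animals 1, 2 and 3 (45, 20 and 54 counts) and at 23.2, 28.5 and 18.6 CPM in old animals (122, 445 and 167 counts). The old libraries all lay above the young ones, as they did for 9.17% of 13570 transcripts tested, and old animals 2, 1 and 3 came in the same descending order as in RNA-seq. The means were 4.22 ± 1.22 and 23.4 ± 4.93 CPM (SD, n = 3), a 5.56-fold rise with a log2 change of 2.48 (SE 0.266; edgeR, adjusted p = 8.88e-06). By that test 1.71% of transcripts changed in either direction. These libraries come from the same brains whose RNA-seq chose the transcript, so the test is not independent of that choice. The change was 2.28 without old animal 2 (edgeR, adjusted p = 4.82e-05), where 1.86% of transcripts were called, and it passed whichever single library of the 6 was left out. The liver share in old animal 2, applied to the mean liver level over both ages, equals 1.48 of its 28.5 CPM. Liver footprints of that animal stood higher than this mean, at 41.4 CPM, and would give a larger amount.

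Brain footprints of ENSRNOT00000000180 were too few to test. The counts were 1, 0 and 4 in young animals 1, 2 and 3 and 5, 32 and 4 in old animals, so 32 of 41 old counts came from old animal 2. As CPM the young libraries stood at 0.0773, 0 and 0.417, the count of 0 allowing up to 0.531, and the old ones at 0.951, 2.05 and 0.447. The lowest old library exceeded the highest young one by 1.07-fold, at 4 counts each, so the ages were not separated at this depth. Summed counts of 5 and 41 gave a ratio of 7.75 (95% exact binomial interval 3.06 to 25.1), and 2.97 on the log2 scale after TMM scaling. That value was 1.82 without old animal 2 and 4.69 without young animal 3. When every detected transcript was kept, the log2 change was 2.68 (edgeR, adjusted p = 0.341), in a test that 1.84% of transcripts passed.

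**Figure D2:**
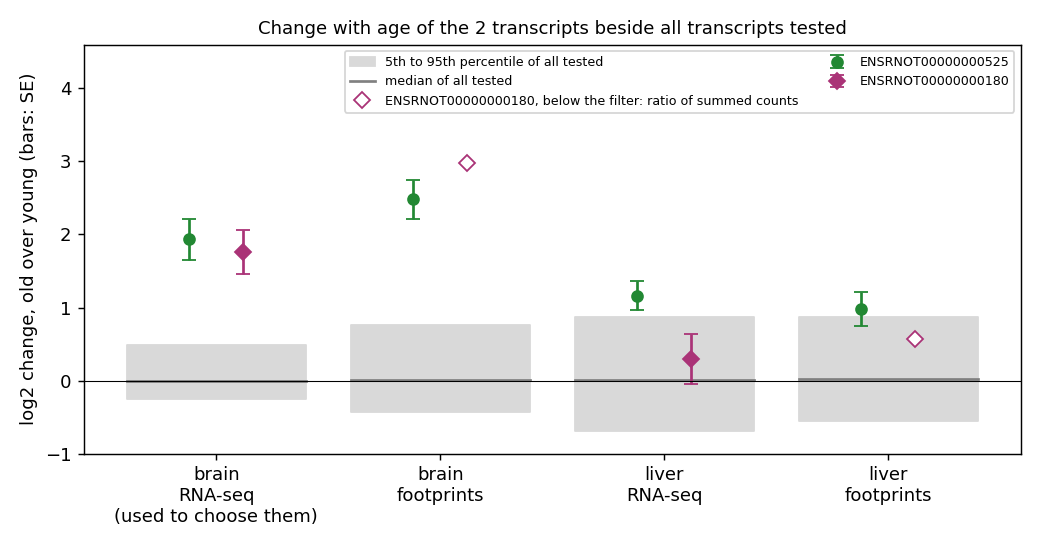
Log2 change from young to old of ENSRNOT00000000525 (circles) and ENSRNOT00000000180 (diamonds) in 4 organ and assay sets, with SE bars; open diamonds are ratios of summed counts with no test. Grey bands span the 5th to 95th percentile of all transcripts tested. Both transcripts lie far above the band in brain, where RNA-seq chose them, and ENSRNOT00000000180 lies inside it in liver.

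In liver, ENSRNOT00000000525 was more abundant than in brain and was also higher in old animals. RNA-seq gave 8.61, 9.89 and 9.98 CPM in young animals 1, 2 and 3 (182, 182 and 179 counts) and 14.0, 22.7 and 22.7 CPM in old animals (402, 578 and 587 counts). Every old library lay above every young one, as for 7.51% of 12198 transcripts tested, and old animal 1 was the lowest of the old ones. The means were 9.49 ± 0.767 and 19.8 ± 5.02 CPM (SD, n = 3), a 2.09-fold difference. The log2 change was 1.16 (SE 0.192, 95% interval 0.72 to 1.61), higher than that of 97.2% of transcripts, and missed the threshold by a small margin (edgeR, unadjusted p = 0.000392, adjusted p = 0.0565). Only 0.0164% of transcripts passed that test.

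The liver call of ENSRNOT00000000525 depended on the processing. It passed with DESeq2 (adjusted p = 4.8e-05), which called 8.88% of transcripts, and with no filter on low counts (edgeR, adjusted p = 0.0351), where 0.902% were called. It also passed without young animal 1 (edgeR, adjusted p = 0.0457), where 5.14% were called, and with 1 common spread for the 12 RNA-seq libraries of both organs (0.00947), where 2177 of 14762 or 14.7% were called. These settings thus called many more transcripts than the main test did. Without young animal 2 the adjusted p by edgeR was 0.289. Old liver RNA-seq libraries were also deeper, at 25444467 to 28664906 counts against 17932008 to 21134842, and the part of depth in the result was not tested. The rank correlation of level with the length-like value that the files give per transcript ran from 0.270 to 0.274 in the young and from 0.204 to 0.249 in the old liver RNA-seq libraries. With that trend removed the log2 change was 1.09 (edgeR, adjusted p = 0.0705), and 0.0164% of transcripts passed.

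Liver footprints of ENSRNOT00000000525 stood at 18.7, 16.9 and 13.0 CPM in young animals 1, 2 and 3 (221, 257 and 228 counts) and at 23.6, 41.4 and 37.6 CPM in old animals (253, 523 and 577 counts). Again the ages did not overlap, as for 13.5% of 11396 transcripts tested, and old animal 1 was the lowest old library, as in RNA-seq. The means were 16.2 ± 2.92 and 34.2 ± 9.33 CPM (SD, n = 3), a 2.11-fold difference. The log2 change of 0.98 (SE 0.231, 95% interval 0.46 to 1.50) did not pass (edgeR, unadjusted p = 0.00187, adjusted p = 0.176), in a test that 0.0176% of transcripts passed. DESeq2 gave an adjusted p of 0.0195 and called 1.94% of transcripts.

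ENSRNOT00000000180 showed no separation of the ages in liver. RNA-seq gave 2.32, 1.47 and 2.17 CPM in young animals 1, 2 and 3 (49, 27 and 39 counts) and 2.09, 1.41 and 3.56 CPM in old animals (60, 36 and 92 counts). Old animals 1 and 2 lay within or below the young range, and old animal 3 was the highest of all. The log2 change was 0.30 (SE 0.340, 95% interval -0.50 to 1.09; edgeR, adjusted p = 0.628), and 0.0052 without old animal 3. Its liver footprints came to 8, 8 and 7 counts in young and 8, 15 and 9 in old animals, below the filter, and their summed CPM were 0.516 (95% exact Poisson interval 0.327 to 0.774) and 0.827 (0.565 to 1.17).

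The brain and liver changes were set side by side for each transcript. For footprints of ENSRNOT00000000525 the change with age was smaller in liver than in brain by 1.54 on the log2 scale (SE 0.381, 95% interval of liver minus brain -2.36 to -0.73). That difference did not pass adjustment (edgeR, unadjusted p = 0.00116, adjusted p = 0.161) in a test that 0.0139% of 14440 transcripts passed, and did pass with DESeq2 (adjusted p = 0.0162), which called 2.67% of them. Brain footprints come from the brains whose RNA-seq chose the transcript, and deviations correlated between the assays by animal (0.19 to 0.885). A large brain change was thus favoured by the choice, so neither test can decide whether the organs differ. For ENSRNOT00000000180 the fitted value was -2.16 (SE 1.16), given with no test because its footprints were below the filter within each organ. In RNA-seq the liver minus brain values were -0.78 (SE 0.383) and -1.47 (SE 0.498). They carry no test, since their brain part chose the transcripts.

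Footprints of ENSRNOT00000000525 exceeded its RNA in CPM in all 6 animals and both organs. The ratio was 1.83, 1.82 and 3.67 in young brain and 3.77, 2.94 and 3.92 in old brain, so young animal 3 lay within the old range. The mean ratios were 2.44 ± 1.07 and 3.54 ± 0.529 (SD, n = 3), and the fitted change of the ratio with age was 0.58 on the log2 scale (SE 0.405), with no test because RNA-seq enters it. Summed over animals, the ratio was above that of 93.1% of 13878 transcripts with at least 30 RNA-seq counts in young brain and of 97.1% of 14247 in old brain. Liver ratios were 2.17, 1.71 and 1.30 in young and 1.69, 1.82 and 1.65 in old animals, with means of 1.73 ± 0.435 and 1.72 ± 0.0893. Their change with age was -0.23 (SE 0.315, 95% interval -0.91 to 0.45; edgeR, adjusted p = 0.86), and it was 0.021 with library totals in place of TMM factors. In liver 0.00% of 12462 transcripts, 0 in number, passed that edgeR test, with 1254 at an unadjusted p under 0.05, 101 called by DESeq2 and 0 by limma-voom. That test leaves out the pairing of assays by animal. With the animal as a block, edgeR called 841 of the 12462 transcripts, but not ENSRNOT00000000525 (adjusted p = 0.476).

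Footprints of ENSRNOT00000000180 lay below its RNA in CPM in every animal and both organs. The brain ratios were 0.0473, 0 and 0.241 in young animals 1, 2 and 3 and 0.298, 0.39 and 0.0686 in old ones, and the ages overlapped. Summed over animals the ratio was 0.123 in young and 0.282 in old brain, above that of only 2.46% and 6.91% of transcripts. Its fitted change with age was 1.005 on the log2 scale (SE 0.943), and 0.076 without old animal 2. Old animal 3, which had the most RNA of this transcript in brain, had 4 footprint counts. In liver the summed ratios were 0.258 and 0.351, above 11.2% and 9.19% of transcripts, with a change of 0.23 (SE 0.607, 95% interval -1.08 to 1.55; edgeR, adjusted p = 0.942). That change was -0.35 without old animal 2 and -0.0013 without young animal 3. Its liver footprints, at 7 to 15 counts per library, were below the filter of the footprint fit. The transcript entered the ratio fit through its RNA-seq libraries, so that test cannot decide whether the ratio changed. The 2 transcripts thus lay toward opposite ends of the ratio in both organs.

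**Figure D3:**
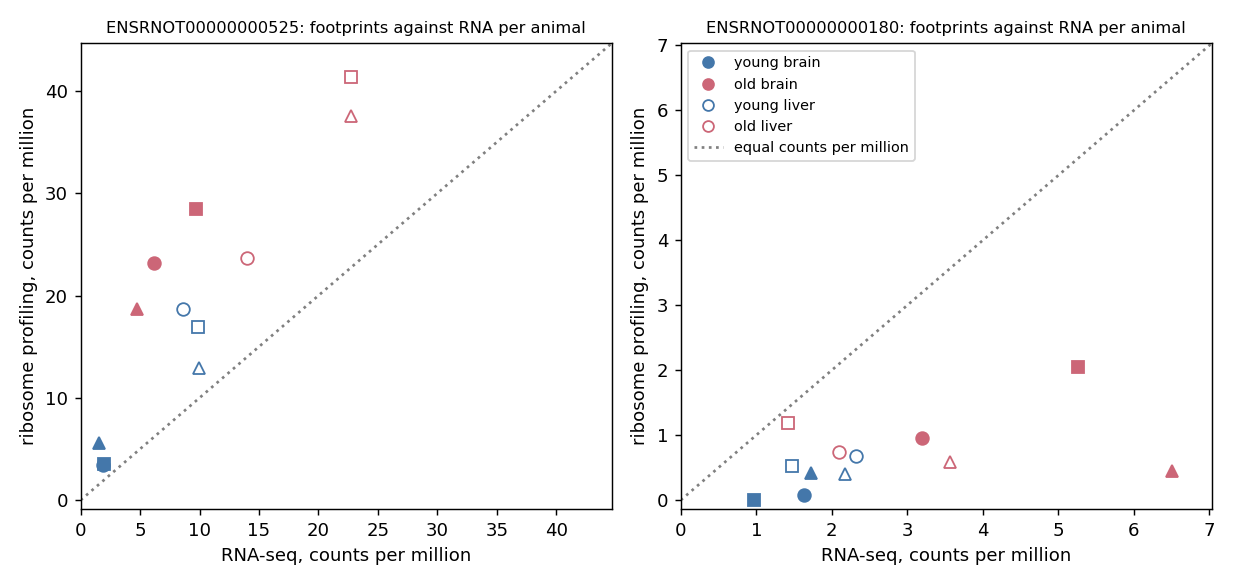
Footprints against RNA of ENSRNOT00000000525 (left) and ENSRNOT00000000180 (right), each point 1 animal in 1 organ, both axes in CPM, with animals by shape as in the plot of levels. The dotted line marks equal values. All 12 points lie above the line on the left and below it on the right.

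Ordered by mean CPM, ENSRNOT00000000525 was lowest in young brain RNA (1.79) and highest in old liver footprints (34.2). Neighbouring groups in that order overlapped, except young brain footprints (4.22) over young brain RNA and young liver footprints (16.2) over young liver RNA (9.49). Old brain footprints, at 23.4 CPM, lay between old liver RNA and old liver footprints and overlapped both. ENSRNOT00000000180 was lowest in young brain footprints (0.165) and highest in old brain RNA (4.99), and every pair of neighbours overlapped.

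Liver footprints of ENSRNOT00000000525 exceeded brain footprints by 3.32 on the log2 scale in young animals (SE 0.257; edgeR, adjusted p = 2.72e-07) and by 1.79 in old animals (SE 0.261; adjusted p = 0.000267), where 76.3% and 72.0% of transcripts differed between the organs. These tests leave out the pairing of organs by animal. With the animal as a block the differences were 3.32 (edgeR, adjusted p = 2.69e-06) and 1.80 (0.000277). Those fits called 10246 of 13774 and 9439 of 13910 transcripts. The size rests on the scaling. With library totals the differences were 1.93 (edgeR, adjusted p = 2.2e-05) and 0.54 (0.0697), where 86.7% and 83.5% of transcripts were called, and the median of all transcripts shifted by -1.39 and -1.26. For ENSRNOT00000000180 in old animals the difference was 0.68 with TMM factors (SE 0.660; edgeR, adjusted p = 0.374) and -0.54 with library totals. Of its 41 brain counts there, 32 came from old animal 2, and without that animal it did not pass the filter. That test therefore cannot decide whether the organs differ. In young animals its 5 brain counts were below the filter. With no filter the fitted liver minus brain value there was 2.86 (SE 1.11; edgeR, adjusted p = 0.0348), in a test that 66.7% of transcripts passed. It rests on those 5 brain counts, and the ratio of summed counts ran from 2.20 to 4.86 on the log2 scale with 1 animal left out. With library totals there is no value, because the transcript did not pass the filter, so no organ difference is read from this.

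**Figure D4:**
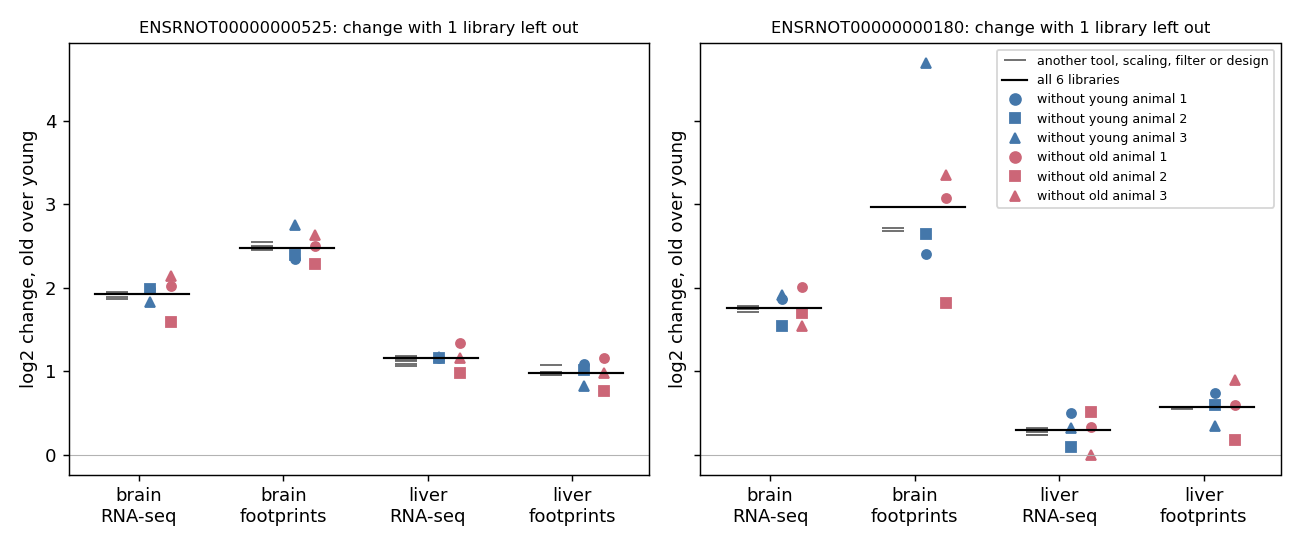
Log2 change from young to old of ENSRNOT00000000525 (left) and ENSRNOT00000000180 (right) with 1 animal left out at a time (points, shape and colour giving the animal), beside all 6 libraries (black line) and other tools, scalings, filters and designs (grey dashes). The brain footprint value of ENSRNOT00000000180 moves between 1.82 and 4.69, whereas that of ENSRNOT00000000525 stays between 2.28 and 2.75.

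Over the 12 brain libraries, with each assay centred on its mean, the 2 transcripts correlated with each other at 0.853 (Pearson's r of log2(CPM + 0.5)). Points share animals, depth and the rise by which the pair was chosen, so this is a description. Of 13188 other transcripts, ENSRNOT00000017060 (0.961) and ENSRNOT00000024485 (0.96) were most like ENSRNOT00000000525, and 30 reached 0.9. In brain RNA-seq the first went from 23.5 ± 0.147 CPM in young to 35.1 ± 2.53 CPM in old animals and the second from 7.89 ± 0.613 to 10.9 ± 1.18 CPM (SD, n = 3), a smaller fold than that of either member of the pair. Nearest to ENSRNOT00000000180 were ENSRNOT00000049574 (0.937) and ENSRNOT00000044983 (0.927), and 9 reached 0.9. By Spearman's rho none of the 4 stayed among the nearest, and with a pseudocount of 2 only ENSRNOT00000024485 did. Neither transcript had the same counts in all 24 libraries as any other.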

How the data were processed

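The authors deposited 1 table per library with raw whole-number counts for 22938 transcripts and a second column, which resembles a length but is undefined. Tools named in the submitters' processing notes are DESeq, TopHat2 2.0.10 and Bowtie 1.0.0.0, with build rn4. The steps they served, the annotation, the counting rule and the treatment of multiply mapped or duplicate reads are not stated there or in the labels, so reads shared with similar transcripts cannot be told apart. A GRCr8 gene table holds 0 of the transcript identifiers.

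Fits over all transcripts used edgeR 4.0.16 in R 4.3.3 (robust quasi-likelihood F test, two-sided, TMM factors, filterByExpr at a count of 10 and a total of 15, Benjamini-Hochberg adjustment over all transcripts tested). Some of the comparisons were also run on simulated counts, with the same spread for every transcript and changes only in those of higher count. That run cannot show how the tests perform at the spread and low counts of the 2 transcripts. Alternatives used DESeq2 1.42.0 and limma 3.58.1. Standard errors derive from the F statistic. Ratios of footprints to RNA were tested by an age-by-assay term over the 12 liver libraries, and organs by an age-by-organ term over the 12 ribosome profiling libraries. Members below the filter are given as ratios of summed counts. Liver-enriched transcripts had a mean liver RNA-seq CPM at least 32 times that in brain plus 0.5, the 50 highest being used. The trend with length used transcripts with a mean of at least 1 CPM. Nearest transcripts were taken by a fixed rule, the 2 with the highest Pearson's r per member. Members, rules and tests were chosen with earlier results of these data known, and the removal of the length trend was added later. The exact binomial and Poisson intervals of summed counts and the floors (3 counts) cover counting error only. Intervals of log2 changes were built from the standard errors of the fits, so they include the spread between libraries. PCR reads carry no molecular identifiers.

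Same-numbered libraries come from the same animal, and their deviations from the age means correlated at 0.19 to 0.885 between assays in brain, 0.454 to 0.772 in liver, -0.0726 to 0.188 between organs in RNA-seq and -0.0264 to 0.134 in ribosome profiling. Equal numbers at different ages mark different animals.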

Additional observations from a re-analysis of the deposited data

How the results depend on the processing

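Of all 280 values of the 2 transcripts under other settings, 258 kept their direction and side of the threshold or, where there was no test, moved by less than 1 SD between replicates. The 280 include values named in the report. They also include brain RNA-seq, which has no test because it chose the transcripts. For liver of ENSRNOT00000000525, the RNA-seq log2 change was 1.16 with DESeq2, with no filter on low counts and without young animal 1, and 1.17 with the spread over 12 libraries, all past the threshold, and leaving out 1 library gave 0.98 to 1.34. DESeq2 gave 0.97 for its liver footprints and -1.52 for the difference between organs in footprints, both past the threshold. The second value is not independent of the choice of the transcript. With library totals in place of TMM factors, its ratio change in liver was 0.021, its organ difference in old footprints 0.54, and that of ENSRNOT00000000180 was -0.54. For ENSRNOT00000000180, leaving out 1 library gave 1.82 to 4.69 in brain footprints, 0.18 to 0.90 in liver footprints, -0.35 to 0.80 for the ratio in liver (-0.0013 without young animal 3), 0.076 to 2.38 for the ratio in brain, and 2.20 to 4.86 between organs in young footprints. Its few footprints are the limit at this depth; it had no value in fits whose filter it did not pass. The cause of the other moves was not tested. With the animal as a replicate block, the ratio change in liver was -0.22 and 0.22 and the organ difference in footprints -1.53 and -2.06, with no call changed; with the replicate number, which pairs no animals across ages, the brain footprint change of ENSRNOT00000000525 was 2.46. The number of transcripts called in brain footprints went from 232 to 379 with DESeq2, 99 with limma-voom and 33 without young animal 2, and in liver RNA-seq from 2 to 1083 with DESeq2 and 641 without young animal 1. In brain RNA-seq, used for the choice, the number went from 66 to 295 with DESeq2 and 7 with limma-voom. There it was 1128 without young animal 1, 1 without young animal 3 and 0 with the spread over 12 libraries.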
